A study of Triticum turgidum subsp. durum with 12 samples.

Results

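The genes described here are the 41 wheat genes whose transcripts were far more abundant in leaves without functional PHYB and in leaves without functional PHYC than in WT leaves under short days (SD). They were taken from 75769 high confidence gene models by their TPM, a transcript level scaled for gene length and library size. A gene was included where the mean of each mutant was at least 2 TPM and at least 4 times the WT mean, and where its highest WT library lay below the lowest of the 8 mutant libraries. The thresholds were passed by 50 genes, from which 6 that the study's own tables single out by name and 3 at the distal end of chromosome 2A were set aside. These values chose the genes, so the difference from WT is given below as a description, and counts of calls against WT only repeat the choice. The comparison of *phyB*-null with *phyC*-null was not itself a criterion, but the choice used the level of each mutant and its ratio to WT. The ratio of *phyC*-null to WT was the sole reason for leaving out 47 genes, and that of *phyB*-null for 3. The choice therefore bears on the difference between the mutants as well, and shares of other models are given beside it as a description.

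PHYB and PHYC are phytochromes, receptor pigments that are switched between an inactive and an active form by red and far-red light. In the nucleus the active form alters the activity of transcription factors, among them bHLH proteins of the PIF family. Through such partners phytochromes act on the greening of seedlings, on shade responses and on the time of flowering.

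The *phyB*-null plants (BC2F4) and the *phyC*-null plants (BC2F5) each combined EMS-induced loss-of-function alleles in the A and B homeologs of 1 phytochrome gene of the tetraploid durum wheat Kronos, after 2 backcrosses. WT plants were the Kronos parent, and all 3 genotypes carried *Ppd-A1a*, an allele that reduces photoperiod sensitivity. Each mutant is 1 line, and the same 4 WT libraries served both comparisons. Plants grew in 8 h light and 16 h dark at 20 °C by day and 18 °C by night, and RNA came from the last fully expanded leaf of 8-week-old plants, 4 h after dawn, with 4 biological replicates per genotype. One label calls the tissue the third leaf. At sampling the WT apices had started spike development while the mutant apices were vegetative, so developmental stage and genotype cannot be told apart.

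Library totals ran from 37365465 to 58944135 counts on genes. The largest belonged to *phyC*-null replicate 3, whose TMM scaling factor of 0.761 was the lowest, and calls and differences between the mutants that turn on it are given with and without it. Within both mutants many genes divided the replicates in the same way: in 21.5% of the 23123 high confidence models with at least 2 TPM in both mutants, replicates 1 and 4 were above replicates 2 and 3 in each mutant, against 3.17% with the reverse order. The sources give 2 sequencing lanes with 2 replicates per genotype in each, but do not say which. The leaf label was checked by the Rubisco small subunit genes, whose 4 models summed to between 10100 and 18100 TPM in *phyB*-null, between 7010 and 25500 TPM in *phyC*-null and between 8610 and 15500 TPM in WT. The study's tables hold few other leaf markers. Their 3 chlorophyll a-b binding protein models summed to between 22.6 and 231 TPM in *phyB*-null, between 84.4 and 2130 TPM in *phyC*-null and between 248 and 786 TPM in WT, and their single Rubisco activase model lay at or below 15.1 TPM in all libraries. In bulk leaf, fewer cells of a type and less RNA per cell cannot be told apart.

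Of the 41 genes, 37 carry a description in the annotation that accompanies the study. The descriptions fall into early light-induced proteins, cold-responsive proteins, iron storage and transport, and transcription factors with FT-like genes, with enzymes, transporters and undescribed genes making up the rest. These groupings were made after the values were seen. The A genome holds 18 of the genes and the B genome 23, with 7 each on chromosomes 3B and 5A.

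Across the 41 genes the mean level had a median of 13.1 TPM in *phyB*-null (2.27 to 472), 6.51 TPM in *phyC*-null (2.24 to 159) and 0.563 TPM in WT (0.0069 to 29.6). In 25 of the genes the WT mean was below 1 TPM. The median ratio to WT was 16.8 in *phyB*-null and 8.76 in *phyC*-null, and ratios of at least 10 were reached by 30 genes in *phyB*-null and by 18 in *phyC*-null. Added up, the 41 genes came to 2137 ± 236 TPM in *phyB*-null, 874 ± 195 TPM in *phyC*-null and 127 ± 17.7 TPM in WT (SD, n = 4 each). In edgeR's quasi-likelihood test over 72120 features, with Benjamini-Hochberg adjustment and calls at an adjusted p below 0.01, 41 of the 41 genes were called higher in *phyB*-null than in WT, where 5.97% of all features were. In *phyC*-null 30 of the 41 were called higher than in WT, where 0.422% of all features were. The 11 not called in *phyC*-null were the 4 early light-induced genes described below (adjusted p 0.0194 to 0.0582), the ribonuclease H2 subunit B gene (0.0472), the dirigent protein gene (0.0416), the iron transporter gene *TraesCS5B01G202100* (0.0152), the P-type ATPase gene (0.0161), the DUF1218 gene (0.0143) and the undescribed *TraesCS3B01G118300* (0.0685) and *TraesCS5A01G012400* (0.0328). Without WT replicate 1 the *phyC*-null count was 16 and without WT replicate 2 it was 18. These counts repeat the comparisons that chose the genes.

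**Figure D1:**
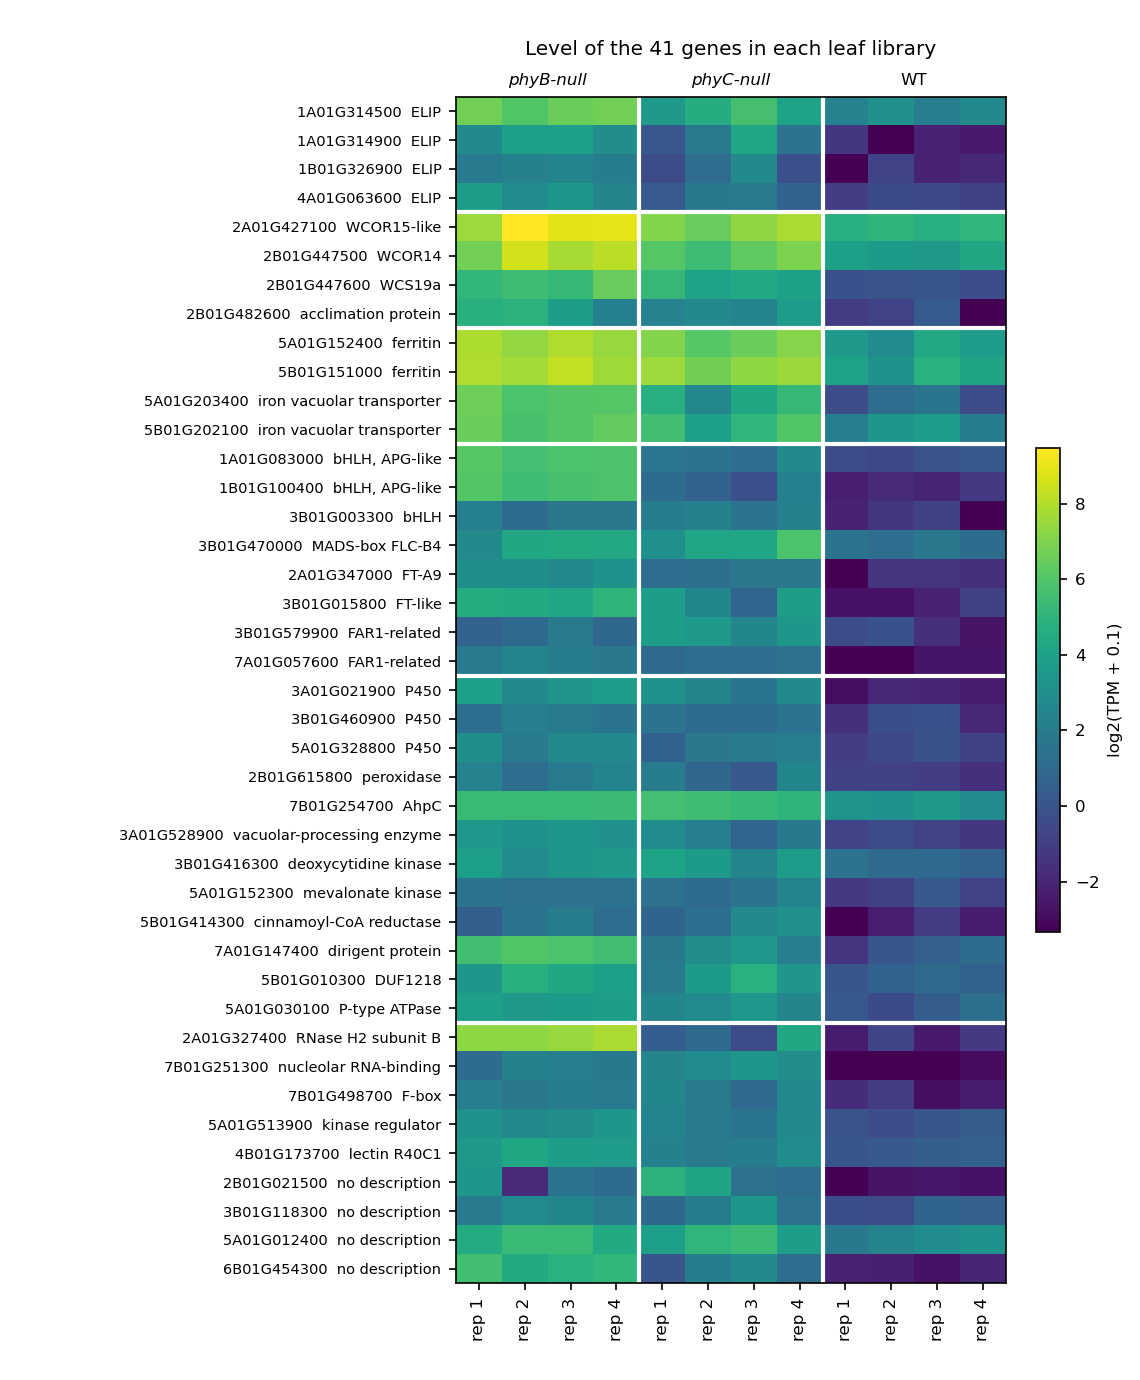
Level of each of the 41 genes (rows, grouped by description and divided by white lines) in each of the 12 libraries (columns, by genotype and replicate), coloured by log2(TPM + 0.1). Every row is brighter in the 8 mutant libraries than in the 4 WT libraries, which is how the genes were chosen, and the *phyB*-null columns are the brightest for 31 of the 41 rows by their mean.

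Early light-induced proteins are thylakoid proteins related to the chlorophyll-binding antenna proteins, and in cereals they accumulate for a short time when leaves green or meet strong light or cold. The genes include 4 of this description. *TraesCS1A01G314500*, described as a low molecular mass form, was the most abundant of them, with 106, 64.3, 97.4 and 105 TPM in *phyB*-null, against 11.7, 24.2, 51.6 and 16.8 TPM in *phyC*-null, and 4.95, 8.79, 4.29 and 6.34 TPM in WT. Every *phyB*-null library lay above every *phyC*-null library, although the test between the mutants did not call it (log2 fold change 1.67, SE 0.49, adjusted p = 0.0616). Its highest *phyC*-null library was replicate 3, without which edgeR called it (log2 fold change 2.55, adjusted p = 0.000173), and DESeq2 called it with all libraries (adjusted p = 0.00753).

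*TraesCS1A01G314900*, which has the same description and is separated from it by 3 gene models on chromosome 1A, reached 6.74, 14.7, 15.01 and 7.65 TPM in *phyB*-null, against 0.996, 3.93, 18.3 and 2.81 TPM in *phyC*-null, and 0.30, 0, 0.13 and 0.0876 TPM in WT. Here *phyC*-null replicate 3 was the highest of all 12 libraries, at 7.1 times the mean of the other 3 *phyC*-null libraries. Without it the *phyB*-null mean was 4.28 times the *phyC*-null mean, against 1.7 times with it, and edgeR's adjusted p was 0.0121, against 0.739. The high molecular mass gene *TraesCS1B01G326900* had a similar spread, with 3.75, 4.57, 5.34 and 3.98 TPM in *phyB*-null, against 0.663, 2.29, 6.28 and 0.767 TPM in *phyC*-null, while no WT library exceeded 0.497 TPM. Its log2 fold change between the mutants was 2.0 without *phyC*-null replicate 3 (adjusted p = 0.0128), against 0.61 with it (0.644). In *TraesCS4A01G063600* the mutants did not overlap, at 5.45 to 13.8 TPM in *phyB*-null, 1.19 to 3.94 TPM in *phyC*-null and 0.398 to 0.642 TPM in WT. Of these 4 genes it had the smallest adjusted p between the mutants (0.0412), which missed the threshold. It was called without *phyC*-null replicate 3 (log2 fold change 2.31, adjusted p = 0.00536) and by DESeq2 (0.00344).

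The summed level of the 4 genes was 90.9 to 130 TPM in *phyB*-null, 14.6 to 80.2 TPM in *phyC*-null and 5.15 to 9.93 TPM in WT. The rule itself set WT below both mutants, and the sums of the mutants did not overlap either. The highest *phyC*-null sum was that of replicate 3, and the other 3 reached at most 33.9 TPM. Without that library the *phyC*-null mean was 17.6 TPM in *TraesCS1A01G314500*, 1.24 TPM in *TraesCS1B01G326900* and 2.07 TPM in *TraesCS4A01G063600*. Their WT means were 6.09, 0.200 and 0.530 TPM, so each of these genes met the rule only with it. One more gene with this description in the study's tables did not meet the rule.

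The cold-responsive genes held the most abundant transcript of the 41. WCOR15 and its relatives are chloroplast proteins that accumulate in cold-treated wheat leaves. *TraesCS2A01G427100*, a WCOR15 gene, had 194, 704, 483 and 507 TPM in *phyB*-null, against 135, 89.1, 161 and 227 TPM in *phyC*-null, and 26.6, 32.1, 25.5 and 34.3 TPM in WT. Its B genome counterpart by description, *TraesCS2B01G447500* (listed as *WCOR14*), followed the same order of libraries in both mutants, with 105, 385, 225 and 286 TPM in *phyB*-null, against 68.6, 45.0, 82.2 and 121 TPM in *phyC*-null, and 14.9, 12.6, 11.9 and 20.3 TPM in WT. In both genes *phyB*-null replicate 1 was well below the other *phyB*-null libraries and fell among the *phyC*-null libraries.

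The adjacent gene *TraesCS2B01G447600* (listed as *WCS19a*, a cold-specific protein of wheat leaves) differed from its neighbour in which libraries were high. It had 35.0, 44.2, 37.1 and 89.1 TPM in *phyB*-null, against 36.7, 17.2, 20.6 and 15.6 TPM in *phyC*-null, and 0.821, 0.901, 0.974 and 0.718 TPM in WT. Its means were 60.2 times WT in *phyB*-null and 26.4 times WT in *phyC*-null. The acclimation protein gene *TraesCS2B01G482600*, similar to a cold-regulated protein of barley, ran from 4.41 to 29.9 TPM in *phyB*-null, from 5.03 to 12.8 TPM in *phyC*-null and from 0 to 1.21 TPM in WT. All 4 means were higher in *phyB*-null, by 2.28 to 3.16 times, and each gene's mutant libraries overlapped. The smallest adjusted p between the mutants was 0.0335, in *WCOR14*. Without *phyB*-null replicate 1 edgeR called *TraesCS2A01G427100* (adjusted p = 0.00938), and DESeq2 called the first 3 of these genes (0.00117 to 0.00952).

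Iron is the subject of 4 genes. Ferritin stores iron inside plastids, and the iron vacuolar transporters move it into the vacuole. The ferritin gene *TraesCS5A01G152400* had 237, 170, 242 and 182 TPM in *phyB*-null, against 136, 70.4, 92.5 and 141 TPM in *phyC*-null, and 12.1, 7.41, 20.6 and 13.1 TPM in WT. The ferritin gene on the matching B genome chromosome, *TraesCS5B01G151000*, had 248, 203, 308 and 198 TPM in *phyB*-null, against 193, 104, 154 and 185 TPM in *phyC*-null, and 17.0, 9.29, 28.8 and 17.6 TPM in WT. In both genes the mutants did not overlap, but in *TraesCS5B01G151000* the lowest *phyB*-null library was only just above the highest *phyC*-null library. Its difference between the mutants was not called (log2 fold change 0.60, SE 0.23, adjusted p = 0.149). The lowest library of both genes was replicate 2 in *phyC*-null and in WT.

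The transporter gene *TraesCS5A01G203400* had 99.2, 56.5, 65.3 and 67.3 TPM in *phyB*-null, against 26.2, 5.97, 19.8 and 36.3 TPM in *phyC*-null, and 0.703, 2.29, 2.98 and 0.649 TPM in WT. Its counterpart *TraesCS5B01G202100* had 91.9, 53.5, 66.7 and 83.9 TPM in *phyB*-null, against 46.8, 14.6, 34.1 and 64.5 TPM in *phyC*-null, and 4.26, 10.6, 12.7 and 4.10 TPM in WT. The order of the libraries within each genotype was shared by the pair, and *phyC*-null replicate 2 was the lowest mutant library of both. Between the mutants the 4 iron genes differed by 1.5 to 3.26 times in their means, always with *phyB*-null higher, and the smallest adjusted p was 0.0198, in *TraesCS5A01G152400*. Without *phyC*-null replicate 2 edgeR called *TraesCS5A01G203400* (adjusted p = 0.0025), and DESeq2 called both it (0.000498) and *TraesCS5A01G152400* (0.00048). The 4 genes together summed to 483 to 682 TPM in *phyB*-null, 195 to 427 TPM in *phyC*-null and 29.6 to 65.2 TPM in WT. The study's tables describe 2 further high confidence ferritin genes, on chromosomes 4A and 4B, with means of 16.3 and 11.2 TPM in *phyB*-null, against 7.99 and 6.1 TPM in *phyC*-null and 8.18 and 5.56 TPM in WT, which are outside the rule because neither mutant mean was 4 times the WT mean. As only uniquely mapped reads were counted, levels of near-identical A and B copies or tandem copies are uncertain.

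**Figure D2:**
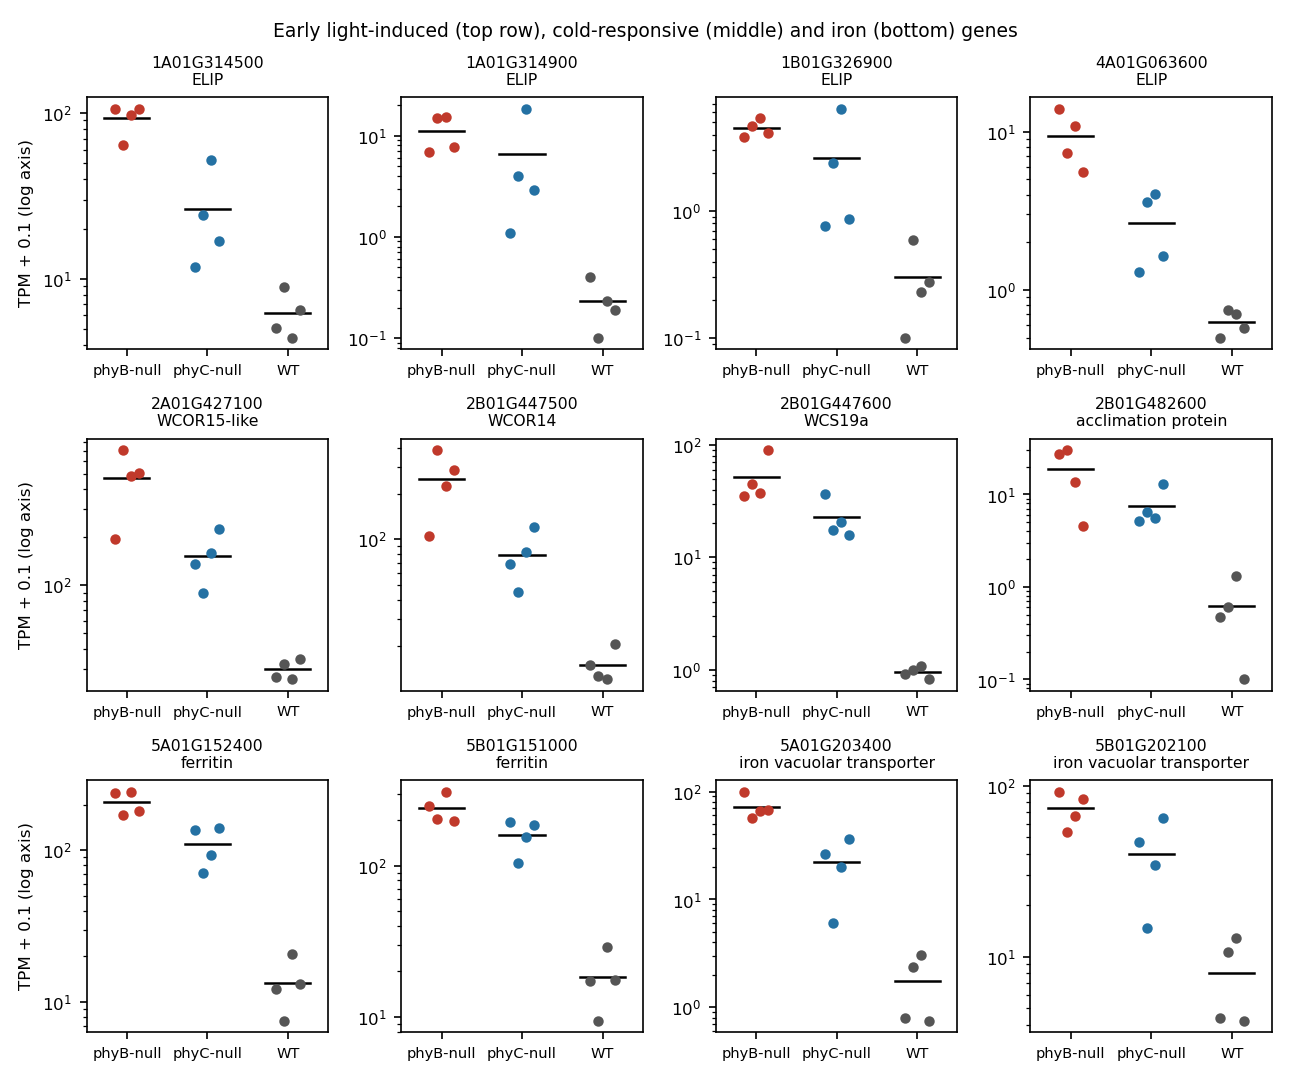
TPM + 0.1 on a log axis for the 4 early light-induced, 4 cold-responsive and 4 iron genes, with 1 dot per library (n = 4 per genotype) and a line at the mean, for *phyB*-null, *phyC*-null and WT from left to right. The ferritin gene *TraesCS5A01G152400* shows 3 separate bands (170 to 242, 70.4 to 141 and 7.41 to 20.6 TPM). In *TraesCS5B01G151000* the lowest *phyB*-null library (198 TPM) lies just above the highest *phyC*-null library (193 TPM). *TraesCS1A01G314900* has 1 *phyC*-null library, at 18.3 TPM, above every *phyB*-null library.

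Among the transcription factors, 2 bHLH genes described as APG-like showed the sharpest difference between the mutants. In rice, APG is a bHLH protein that limits grain length. *TraesCS1A01G083000* had 70.5, 49.0, 56.7 and 60.2 TPM in *phyB*-null, against 3.13, 2.82, 2.39 and 6.34 TPM in *phyC*-null, and 0.680, 0.582, 0.852 and 1.14 TPM in WT. *TraesCS1B01G100400* had 65.8, 44.5, 53.6 and 60.2 TPM in *phyB*-null, against 2.22, 1.52, 0.771 and 4.43 TPM in *phyC*-null, and 0.107, 0.203, 0.149 and 0.357 TPM in WT. The *phyB*-null libraries were thus an order of magnitude above those of *phyC*-null, which were themselves only a few TPM above WT. Both genes met the rule only with *phyC*-null replicate 4, their highest *phyC*-null library. The log2 fold changes of *phyB*-null over *phyC*-null were 4.06 (SE 0.25, adjusted p = 8.69e-06) for *TraesCS1A01G083000* and 4.75 (SE 0.38, adjusted p = 4.98e-05) for *TraesCS1B01G100400*. Both calls held under each of the 18 alternatives tried. The third bHLH gene, *TraesCS3B01G003300* (bHLH36), was as abundant in *phyC*-null as in *phyB*-null within its spread, at 2.12 to 4.45 TPM in *phyB*-null, 2.93 to 4.65 TPM in *phyC*-null and 0 to 0.474 TPM in WT (log2 fold change between the mutants -0.30, SE 0.19).

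The MADS-box gene *TraesCS3B01G470000* (*TaFLC-B4*) belongs to the FLC-like family, whose namesake represses flowering in Arabidopsis. It had 6.44, 20.1, 21.6 and 20.6 TPM in *phyB*-null, against 8.38, 18.9, 18.2 and 56.2 TPM in *phyC*-null, and 2.87, 2.40, 3.34 and 2.21 TPM in WT. The mutants overlapped, as replicate 1 was lowest in each and *phyC*-null replicate 4 was far above the rest. The log2 fold change between the mutants was -0.49, and 0.10 without that library, with a call in neither.

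FT-like proteins belong to the family of the florigen FT, and members of this family can promote or delay flowering. *FT-A9* (*TraesCS2A01G347000*) had 8.04, 8.13, 6.77 and 9.15 TPM in *phyB*-null, against 2.24, 2.52, 3.34 and 3.21 TPM in *phyC*-null, and 0, 0.274, 0.286 and 0.241 TPM in WT. The mutants stood apart with little spread in either, and it was called higher in *phyB*-null than in *phyC*-null (log2 fold change 1.48, SE 0.26, adjusted p = 0.00546). A second FT-like gene, *TraesCS3B01G015800*, had 24.3, 22.1, 19.1 and 31.2 TPM in *phyB*-null, against 14.0, 5.81, 1.70 and 14.3 TPM in *phyC*-null, and 0.0547, 0.0544, 0.142 and 0.479 TPM in WT. Its *phyC*-null replicate 3 was at 0.15 times the mean of the other *phyC*-null libraries, and the difference between the mutants was not called (log2 fold change 1.57, SE 0.42, adjusted p = 0.0438), except by DESeq2 (0.00374). An FT description is carried by 17 high confidence models in the study's tables, which were selected on these libraries. In *phyB*-null the test called 9 of them above WT and 7 below it, and in *phyC*-null 5 above WT and 5 below it.

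A pair of genes is similar to FAR1-RELATED SEQUENCE proteins, a family derived from transposases whose founding members act in phytochrome A signalling in Arabidopsis. The study's tables hold 28 high confidence models with a FAR1 description. Of these the test called 3 above WT in *phyB*-null and 2 above WT in *phyC*-null, with 0 below WT in either. Over all features 5.97% were called above WT in *phyB*-null and 0.422% in *phyC*-null. The 2 called in *phyC*-null were the pair described here, chosen for being above WT, so that count repeats the choice. The models come from the same tables as those with an FT description, with the same limit of selection. *TraesCS3B01G579900* was the only one of the 41 called higher in *phyC*-null. It had 1.54, 1.97, 3.72 and 1.84 TPM in *phyB*-null, against 14.2, 11.5, 5.80 and 10.8 TPM in *phyC*-null, and 0.715, 0.840, 0.226 and 0.0569 TPM in WT, so that the lowest *phyC*-null library exceeded the highest *phyB*-null library (log2 fold change -2.13, SE 0.30, adjusted p = 0.00166). *TraesCS7A01G057600* had the smallest SD relative to its mean in *phyC*-null, at 3.31 to 5.36 TPM in *phyB*-null, 2.03 to 2.59 TPM in *phyC*-null and at most 0.0671 TPM in WT. It had 240 counts in *phyB*-null and 158 in *phyC*-null, against 2 over all WT libraries. Scaled by library totals, the ratio of *phyB*-null to WT was 119 (exact 95% counting interval 32.6 to 989) and that of *phyC*-null to WT was 67.1 (18.3 to 559), and these intervals cover counting error only.

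Enzymes and transporters made up 12 of the genes. The dirigent protein gene *TraesCS7A01G147400*, of a family that steers the coupling of phenolic radicals, had 48.7, 63.6, 57.7 and 46.5 TPM in *phyB*-null, against 3.38, 7.96, 11.1 and 4.30 TPM in *phyC*-null, and 0.283, 0.956, 1.42 and 2.23 TPM in WT. It was the only one of the 12 called between the mutants (log2 fold change 2.93, SE 0.45, adjusted p = 0.00263), and its log2 fold change was 3.56 without *phyC*-null replicate 3. The vacuolar-processing enzyme gene *TraesCS3A01G528900*, which encodes a cysteine protease that matures vacuolar proteins, missed the threshold although the mutants did not overlap, with 8.66 to 11.1 TPM in *phyB*-null, 1.68 to 7.25 TPM in *phyC*-null and 0.301 to 0.663 TPM in WT (log2 fold change 1.34, SE 0.27, adjusted p = 0.0114). It was called without *phyC*-null replicate 1 (adjusted p = 0.00156), without *phyC*-null replicate 3 (0.00777) and by DESeq2 (0.000127).

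The alkyl hydroperoxide reductase gene *TraesCS7B01G254700*, whose product removes peroxides, had nearly the same level in the mutants, at 38.6, 38.9, 38.4 and 41.7 TPM in *phyB*-null, against 50.2, 44.2, 38.0 and 31.4 TPM in *phyC*-null, and 9.72, 9.42, 11.7 and 7.15 TPM in WT. Its log2 fold change between the mutants was -0.04 (SE 0.18). The deoxycytidine kinase gene *TraesCS3B01G416300*, for nucleotide salvage, also had near-equal means in the mutants, with 7.04 to 14.7 TPM in *phyB*-null, 5.26 to 16.7 TPM in *phyC*-null and 1.44 to 2.78 TPM in WT. The mevalonate kinase gene *TraesCS5A01G152300*, of isoprenoid synthesis, lies next to the ferritin gene *TraesCS5A01G152400*, yet it was present at only 2.67 to 2.83 TPM in *phyB*-null, 2.08 to 5.36 TPM in *phyC*-null and 0.340 to 1.15 TPM in WT.

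The 3 cytochrome P450 genes, of an oxidase family with many substrates, were all at low or moderate levels. *TraesCS3A01G021900* had the highest ratio to WT of the 3, with 6.95 to 14.6 TPM in *phyB*-null, 3.02 to 9.24 TPM in *phyC*-null and 0.0366 to 0.182 TPM in WT. *TraesCS5A01G328800* had 3.79 to 8.05 TPM in *phyB*-null, 1.49 to 4.29 TPM in *phyC*-null and 0.398 to 0.789 TPM in WT, and *TraesCS3B01G460900* had 2.43 to 4.27 TPM in *phyB*-null, 2.13 to 2.92 TPM in *phyC*-null and 0.177 to 0.848 TPM in WT. The mutants overlapped in all 3 P450 genes. The peroxidase gene *TraesCS2B01G615800*, of a family that oxidises phenolics with hydrogen peroxide, ran from 2.38 to 5.33 TPM in *phyB*-null, from 1.11 to 5.73 TPM in *phyC*-null and from 0.245 to 0.453 TPM in WT. The P-type ATPase gene *TraesCS5A01G030100*, for an ion pump, did not overlap between the mutants, at 11.8 to 14.6 TPM in *phyB*-null, 5.61 to 11.3 TPM in *phyC*-null and 0.639 to 2.55 TPM in WT. Its difference between the mutants was called without *phyC*-null replicate 3 (log2 fold change 1.25, adjusted p = 0.00105) but not with it (0.73, adjusted p = 0.202). Cinnamoyl-CoA reductase, at the entry to monolignol synthesis, is encoded by *TraesCS5B01G414300*, whose mean was 2.66 ± 1.18 TPM in *phyB*-null, 4.80 ± 3.33 TPM in *phyC*-null and 0.146 ± 0.159 TPM in WT (SD, n = 4 each). The DUF1218 gene *TraesCS5B01G010300*, described as a 1,3-beta-glucan synthase component, had 10.8, 27.6, 20.3 and 14.6 TPM in *phyB*-null, against 3.60, 12.6, 28.1 and 9.99 TPM in *phyC*-null, and 0.988 to 2.06 TPM in WT. Its highest *phyC*-null library, replicate 3, was above every *phyB*-null library, and without it the log2 fold change between the mutants was 1.27, against 0.31 with it, with a call in neither.

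The remaining genes included the largest difference between the mutants. *TraesCS2A01G327400*, similar to subunit B of ribonuclease H2, an enzyme that removes RNA from RNA-DNA hybrids, had 154, 155, 177 and 228 TPM in *phyB*-null, against 1.34, 1.95, 0.659 and 20.1 TPM in *phyC*-null, and 0.103, 0.545, 0.0893 and 0.330 TPM in WT. Its *phyC*-null mean of 6.01 ± 9.40 TPM (SD, n = 4) rested on replicate 4, as the other 3 libraries were each below the 2 TPM that the choice of genes asked of the mean. It was called higher in *phyB*-null (log2 fold change 5.05, SE 0.90, adjusted p = 0.0063), and without *phyC*-null replicate 4 the log2 fold change was 7.12 (adjusted p = 5.5e-06). The lectin gene *TraesCS4B01G173700* (R40C1, a family that responds to abscisic acid in rice) had 11.9, 19.8, 13.7 and 13.2 TPM in *phyB*-null, against 4.68, 3.87, 4.11 and 7.41 TPM in *phyC*-null, and 0.983, 1.07, 1.36 and 1.40 TPM in WT. It too was called (log2 fold change 1.61, SE 0.25, adjusted p = 0.00319). Without *phyC*-null replicate 4 it would not have met the rule. The F-box gene *TraesCS7B01G498700*, of a family that selects proteins for degradation, had 3.38 to 4.38 TPM in *phyB*-null, 1.98 to 6.16 TPM in *phyC*-null and 0.0399 to 0.389 TPM in WT. The gene for a membrane-associated kinase regulator, *TraesCS5A01G513900*, had 6.54 to 10.6 TPM in *phyB*-null, 3.06 to 6.79 TPM in *phyC*-null and 0.706 to 1.28 TPM in WT, and came close to a call between the mutants (log2 fold change 0.92, SE 0.19, adjusted p = 0.0144), which it reached without *phyC*-null replicate 4 (0.0078) and with DESeq2 (0.000217).

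Of the 4 genes without a description, *TraesCS6B01G454300* was called higher in *phyB*-null, with 47.4, 21.6, 28.4 and 35.1 TPM in *phyB*-null, against 0.961, 4.003, 6.54 and 2.39 TPM in *phyC*-null, and 0.122, 0.121, 0.0529 and 0.160 TPM in WT (log2 fold change 3.09, SE 0.54, adjusted p = 0.00557), and its log2 fold change was 3.89 without *phyC*-null replicate 3. *TraesCS2B01G021500* had the largest SD relative to its mean in *phyB*-null, with 10.7, 0.183, 2.84 and 2.18 TPM in *phyB*-null, against 30.6, 17.3, 2.73 and 2.25 TPM in *phyC*-null, and at most 0.0786 TPM in WT. The range within each mutant was wider than the gap between their means. *TraesCS3B01G118300* had nearly equal means in the mutants, at 5.01 ± 1.70 TPM in *phyB*-null, 4.84 ± 3.99 TPM in *phyC*-null and 1.10 ± 0.478 TPM in WT (SD, n = 4 each). That near-equality rested on *phyC*-null replicate 3, at 10.65 TPM, without which the *phyB*-null mean was 1.73 times the *phyC*-null mean. *TraesCS7B01G251300*, described as a nucleolar RNA-binding protein, had 542 counts in *phyB*-null and 1356 in *phyC*-null, against 1 over all WT libraries. Every *phyB*-null library (2.10 to 4.87 TPM) was below every *phyC*-null library (5.56 to 10.4 TPM), but the difference was not called (log2 fold change -1.10, SE 0.36, adjusted p = 0.0929). Scaled by library totals, the ratio of *phyC*-null to WT was 1150 (exact 95% counting interval 206 to 45500).

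Between the mutants, *phyB*-null levels were mostly the higher. The *phyB*-null mean was above the *phyC*-null mean in 31 of the 41 genes (75.6%), against 49.7% of the 23123 high confidence models with at least 2 TPM in both mutants, and the median ratio was 1.84, against 0.999. By a factor of at least 2, *phyB*-null was higher in 16 genes and *phyC*-null in 3. Every *phyB*-null library lay above every *phyC*-null library in 16 genes (39%, background 9.38%), the reverse held in 2 (4.88%, background 5.93%), and the mutants overlapped in 23. Without *phyC*-null replicate 3 the *phyB*-null mean was still above in 31 genes, with a median ratio of 1.97. Within replicates 1 and 4 it was above in 30 genes and within replicates 2 and 3 in 34, with 29 in common. That split was seen in these same libraries, so its counts are no separate check of the direction. The background models were not chosen by their ratio to WT, so setting the 41 genes beside them is a description and not a test.

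The quasi-likelihood test between the mutants called 8 of the 41 genes (19.5%), 7 higher in *phyB*-null and 1 higher in *phyC*-null, where 3.41% of all 72120 features were called (1.40% higher in *phyB*-null and 2.02% higher in *phyC*-null). Among the 23123 models with at least 2 TPM in both mutants 4.54% were called. Neither background was chosen by a ratio to WT, as the 41 genes were. The 8 genes were the APG-like bHLH pair, ribonuclease H2 subunit B, the undescribed *TraesCS6B01G454300*, the dirigent protein, lectin R40C1, *FT-A9* and, in the other direction, *TraesCS3B01G579900*. Without *phyC*-null replicate 4 the rule kept 37 of the 41 genes and lost the APG-like pair, ribonuclease H2 subunit B and the lectin. In each of the 8 the libraries of the mutants did not overlap, so any split of the replicates keeps their direction. The count was 3 without *phyB*-null replicate 3, 5 without *phyB*-null replicate 4, 4 without *phyC*-null replicate 2 and 12 without *phyC*-null replicate 3, and DESeq2 called 19 genes, the 8 among them. Of the 18 alternatives, 7 lost the call of ribonuclease H2 subunit B (highest adjusted p 0.0216), 7 that of *FT-A9* (0.0214), 5 that of *TraesCS6B01G454300* (0.0214), 4 that of the lectin (0.0123), 2 that of the dirigent protein (0.0112) and 1 that of *TraesCS3B01G579900* (0.0109), most of them by leaving out 1 library. The ribonuclease H2 subunit B call was lost without any one of the 8 libraries except *phyC*-null replicates 3 and 4, and that of *FT-A9* without any one except *phyC*-null replicate 3. The call of *TraesCS6B01G454300* was lost without *phyB*-null replicate 1, 3 or 4 or *phyC*-null replicate 2 or 4, that of the lectin without *phyB*-null replicate 3 or *phyC*-null replicate 1 or 2, and that of the dirigent protein without *phyB*-null replicate 3 or *phyC*-null replicate 2.

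**Figure D3:**
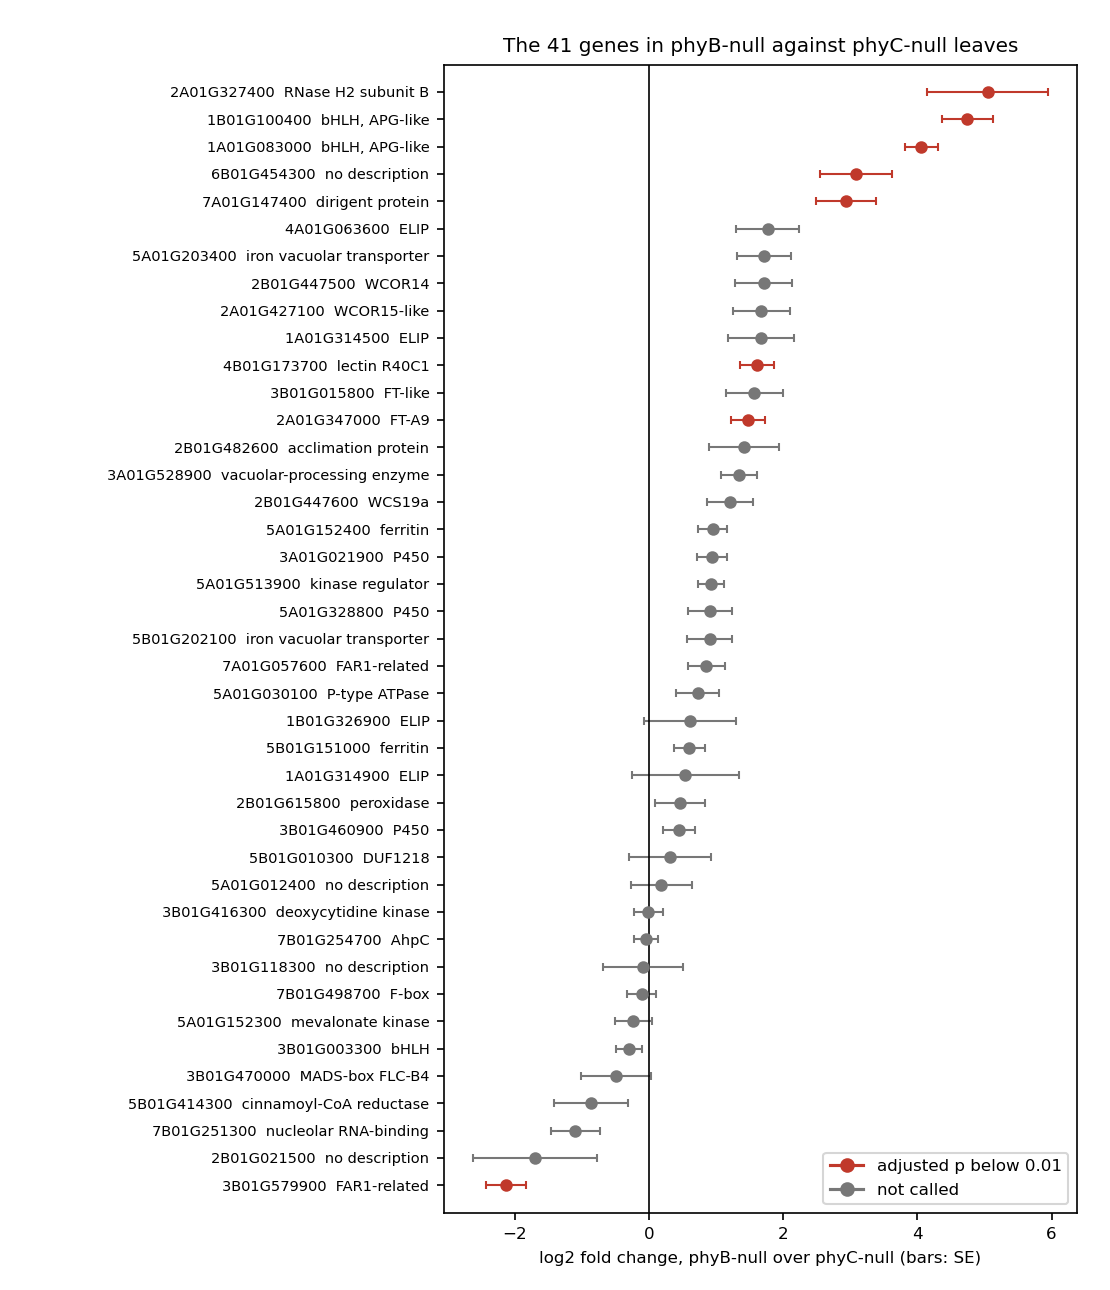
Log2 fold change of *phyB*-null over *phyC*-null with its SE for each of the 41 genes, from edgeR's quasi-likelihood fit to 4 libraries of each mutant, ordered by size, with the genes at an adjusted p below 0.01 in red. The ribonuclease H2 subunit B gene (5.05) and the 2 APG-like bHLH genes (4.75 and 4.06) lie far to the right, and *TraesCS3B01G579900* (-2.13) lies at the left end.

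The 41 genes, like most others, varied more between *phyC*-null libraries than between *phyB*-null libraries. The SD had a median of 25.9% of the mean in *phyB*-null, 49.1% in *phyC*-null and 53.5% in WT, and it was larger in *phyC*-null than in *phyB*-null for 75.6% of the genes, against 81.2% of the 23123 models. In *phyC*-null, replicate 4 was the highest library for 20 genes, replicate 3 for 12, replicate 1 for 9 and replicate 2 for none of the 41. Replicate 3 was also the lowest for 12 genes. It stood at least 2-fold above the mean of the other 3 libraries for 7 genes and at least 2-fold below it for 10.

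Some of the genes that were highest in *phyC*-null replicate 3 divided the *phyB*-null replicates in the same way. Replicates 2 and 3 were above replicates 1 and 4 in both mutants for 6 genes (14.6%, against 3.17% of the 23123 models). These were the early light-induced genes *TraesCS1A01G314900* and *TraesCS1B01G326900*, the dirigent protein gene, the DUF1218 gene *TraesCS5B01G010300*, and the undescribed *TraesCS3B01G118300* and *TraesCS5A01G012400*. In *TraesCS5A01G012400*, for example, the levels were 23.3, 39.0, 38.9 and 22.7 TPM in *phyB*-null, against 14.96, 33.9, 41.2 and 13.8 TPM in *phyC*-null. The opposite order was found in 9 genes (22%, against 21.5%), which included the APG-like bHLH pair, both iron vacuolar transporters, the peroxidase and *TraesCS3B01G015800*. In none of the 15 genes did the WT libraries follow the same order, and what replicates 1 and 4 had in common is not given in the sources used here.

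**Figure D4:**
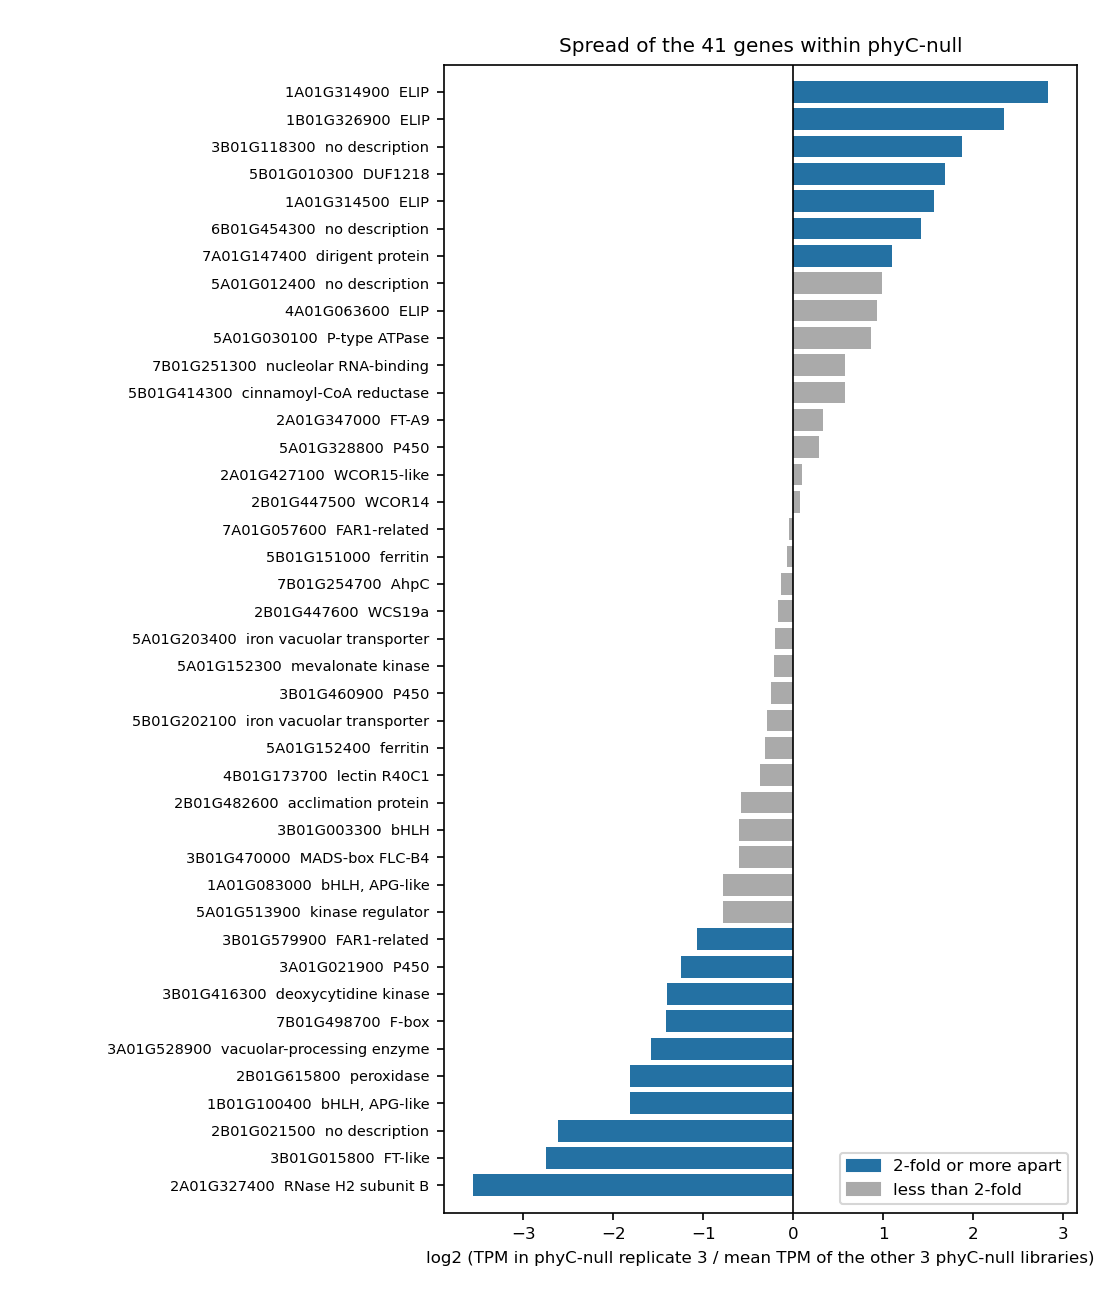
Log2 ratio of the TPM in *phyC*-null replicate 3 to the mean of the other 3 *phyC*-null libraries for each of the 41 genes, with bars in blue where the ratio is 2-fold or more in either direction. The range runs from 0.0846 times, for ribonuclease H2 subunit B, to 7.1 times, for *TraesCS1A01G314900*.

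By position, 3 pairs of the genes lay close together: the early light-induced pair on chromosome 1A, *WCOR14* with *WCS19a* on 2B, and mevalonate kinase with ferritin on 5A. Of the 382 other high confidence models that were among the 5 nearest tested models on either side of a gene, the test of *phyB*-null against WT called 8.64% higher and 10.2% lower, against 7.52% and 7.65% of the 48007 tested high confidence models with a chromosome. The test of *phyC*-null against WT called 4 of the 382 higher (1.05%) and 0 lower, against 0.381% and 0.337% of the 48007 models.

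Just inside and outside the threshold of the ratio to WT, differences were small. The lowest ratio of *phyC*-null to WT among the genes was 4.15, in *TraesCS5A01G012400*, and 3.98, in *TraesCS1A01G382200*, was the nearest below. For *phyB*-null the same ratio was 4.15 in *TraesCS7B01G254700* and 3.87 in *TraesCS1A01G400500*. The ratio of *phyC*-null to WT was the sole reason for leaving out 47 genes and that of *phyB*-null for 3. The mean level of *phyC*-null was the sole reason for 14, that of *phyB*-null for 3, and overlap with WT for 20. The nearest *phyC*-null means were 2.24 TPM inside, in *TraesCS1B01G100400*, and 1.55 TPM outside, in *TraesCS7B01G286300*. Apart from the 41, counts are given for 13 of the genes that the study names as lower in WT than in both mutants, a list that does not hold all such names. The test called 12 of the 13 higher in *phyB*-null than in WT and 8 of the 13 higher in *phyC*-null than in WT, with a median log2 fold change of 2.51 in *phyB*-null and 2.53 in *phyC*-null, against 0.0026 and 0.06 over all features. The study chose those genes on these libraries, so they are not independent evidence of the direction.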

How the data were processed

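The study measured leaf RNA by single-end 100 bp RNA-seq in 12 libraries. The authors used GSNAP for alignment to IWGSC RefSeq v1.0. HTSeq then counted uniquely mapped reads per gene model, and the authors discarded features with fewer than 3 counts in every library. They deposited these raw counts (72120 features) and TPM for 190459 models without a filter. Tool versions and the strand setting are not given in the sources used here.

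Samples were grouped by the genotype in their labels. Genes were chosen on the deposited TPM, and levels are mean and SD of 4 libraries. Pairs of genotypes were compared on the deposited counts in R 4.3.3 with edgeR 4.0.16 (TMM factors, quasi-likelihood fit of the 8 libraries, all features, Benjamini-Hochberg adjusted p below 0.01, SE from the F statistic). In simulated data the test recovered 85% of genes changed 4-fold between the mutants and 7% of those changed 2-fold, so a difference of 2-fold was mostly not detectable. P-values measure the spread between the biological replicates named in the labels. Alternatives were DESeq2 1.42.0, limma 3.58.1 on log2(TPM + 1) or log2(TPM + 0.1), other scalings, filters and thresholds, 1 fit of all genotypes, the replicate number as a block, other settings of the rule, and leaving out each library.

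The genes named are the most abundant, those called between the mutants, up to 4 of each class of description, those nearest a threshold and those close to each other; others were named after their values were seen. The genes and lists were chosen with earlier results of these data known. Descriptions come from the study's annotation tables. Seed storage proteins matched no model there, and 2 models described as pollen proteins summed to 39.6 to 55.1 TPM in phyB-null, 62.8 to 289 TPM in phyC-null and 192 to 240 TPM in WT. Sequences and coordinates were not analysed here.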

Additional observations from a re-analysis of the deposited data

Results flagged for a closer look

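In 7 of the 123 groups of 4 libraries formed by the 41 genes and 3 genotypes, 1 library lay far from the other 3 by Dixon's ratio of gap to range at the 95% level, where chance gives about 1 group in 20. In *TraesCS1A01G314900* (early light-induced) *phyC*-null replicate 3 was at 18.3 TPM against 0.996 to 3.93 TPM in the others (ratio 0.83). In *TraesCS2A01G327400* (ribonuclease H2 subunit B) *phyC*-null replicate 4 was at 20.1 TPM against 0.659 to 1.95 TPM (0.933). In *TraesCS3B01G470000* (*TaFLC-B4*) *phyB*-null replicate 1 was at 6.44 TPM against 20.1 to 21.6 TPM (0.903). Those 3 differences are several-fold. The other flags are small in TPM: *phyB*-null replicate 1 of *TraesCS5A01G152300* at 2.83 against 2.67 to 2.70 TPM (0.851), and *phyB*-null replicate 4 of *TraesCS7B01G254700* at 41.7 against 38.4 to 38.9 TPM (0.851). In WT, replicate 1 of *FT-A9* (*TraesCS2A01G347000*) was at 0 against 0.241 to 0.286 TPM (0.84), and replicate 4 of *TraesCS7B01G251300* was at 0.0274 TPM where the others were at 0 (1.0).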

How the results depend on the processing

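Between *phyB*-null and *phyC*-null the 8 calls became 19 with DESeq2 and 17 at an adjusted p below 0.05, and 3 to 12 when 1 library was left out. Over all features the 2462 calls became 6039 with DESeq2, 6248 at 0.05, 3967 with all genotypes in 1 fit, 1107 and 1228 with limma on log2(TPM + 1) and log2(TPM + 0.1), and 1063 to 3537 without 1 library. The 30 genes called between *phyC*-null and WT became 12 and 14 with limma, and 16 to 32 without 1 library. The 8 of 13 study-named genes called in *phyC*-null became 13 with DESeq2 and 13 at 0.05. The rule gave 23 genes at 6-fold, 21 at 5 TPM, and 39 to 53 without 1 library (53 without *phyC*-null replicate 3, of which 36 were among the 41). Lost without that replicate were *TraesCS1A01G314500*, *TraesCS1B01G326900*, *TraesCS4A01G063600*, *TraesCS3B01G118300* and *TraesCS5A01G012400*. With CPM in place of TPM the rule gave 41 genes, 32 of them shared. Of 738 values of single genes between the mutants under the alternatives, 26 lost and 31 gained a call, and none of the called values changed direction. The sign changed in 21 of the 738, all without a call in the main test or the alternative. Same-numbered replicates of the mutants had mixed correlations of their deviations (0.55, -0.53, 0.26 and -0.05), not all above 0.1, so the numbers were not taken to pair the samples; with the replicate block 10 of the 41 genes were called, the 8 among them. The causes were not tested. With 4 libraries of each mutant, 2-fold differences between the mutants were mostly not detectable.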
